A study of Mus musculus with 9 samples.

Results

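The genes described here are 10 members of the brown fat programme that PRDM16 drives in adipocytes, measured here in cells of the brain ventricular zone. The members are Ucp1, Cidea, Elovl3, Cpt1b, Ppargc1a, Ppargc1b, Ppara, Pparg, Cebpb and Zfp516. They were chosen by name, and a gene's value was taken from its probe set with a single gene symbol, or from the probe set with the highest mean where there were several. By this rule 9 of the 10 members were measured, out of 19938 genes. The 1 probe set that lists Cpt1b, the muscle and brown fat carnitine palmitoyltransferase, also lists another gene symbol, so no value is given for it.

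RNA came from uncultured ventricular zone cells dissected from newborn mice of the C57BL/Ka strain. The genotypes were Prdm16LacZ/LacZ (KO), Prdm16LacZ/+ (HET) and Prdm16+/+ (WT), with 3 Affymetrix Mouse Gene ST 1.0 arrays each. The values are the authors' log2 expression values per probe set. The labels do not say whether the arrays of a genotype came from separate animals or litters, nor whether tissue was pooled. The p-values therefore cover the spread from array to array and nothing more, and that spread may be technical. In bulk tissue such as this, fewer cells of a type and less RNA per cell cannot be told apart. Prdm16 itself was at 5.69, 6.41 and 6.17 in KO arrays, 6.995, 7.34 and 6.998 in HET arrays, and 7.62, 7.57 and 7.23 in WT arrays. Every KO array lay below every HET and WT array. All 9 arrays were above background by the measure described further on, but KO replicate 1 by only 0.052. Prdm16 fell in KO against WT (by limma, log2 change -1.38 with SE 0.18 and adjusted p = 0.010), while HET against WT was at -0.36 (SE 0.18, adjusted p = 0.99). Where its probe set lies relative to the LacZ insertion was not checked.

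In brown fat, PRDM16 works as a partner of other regulators and binds little DNA by itself. With C/EBPβ (Cebpb) it directs precursor cells to the brown fat lineage. It then strengthens the PPAR nuclear receptors and the PGC-1 coactivators (Ppargc1a and Ppargc1b) on genes that burn fat for heat, of which the mitochondrial uncoupling protein Ucp1 is the best known. Outside fat, PGC-1α raises the number and activity of mitochondria in muscle, liver and neurons. In the nervous system PRDM16 is known as a regulator of neural stem cells.

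The promoter windows of Ppargc1a and Ucp1 are shown because the first is the coactivator that these arrays measured above background and the second is the classic heat-producing target, which they did not. Both are from RefSeq on build GRCm38.p6 and run from 250 bases before to 50 bases after the annotated start, 5′ to 3′ on the gene's strand. The Ppargc1a window is chr5:51567676-51567975 on the minus strand, and the Ucp1 window is chr8:83290098-83290397 on the plus strand. Capitals mark the short cAMP response element core, TGACG on either strand.
Ppargc1a: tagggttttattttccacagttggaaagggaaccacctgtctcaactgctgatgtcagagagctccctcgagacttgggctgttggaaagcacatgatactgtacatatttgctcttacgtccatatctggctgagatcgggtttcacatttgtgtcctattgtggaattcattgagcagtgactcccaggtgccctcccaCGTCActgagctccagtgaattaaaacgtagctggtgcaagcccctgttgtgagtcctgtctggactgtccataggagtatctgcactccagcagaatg
Ucp1: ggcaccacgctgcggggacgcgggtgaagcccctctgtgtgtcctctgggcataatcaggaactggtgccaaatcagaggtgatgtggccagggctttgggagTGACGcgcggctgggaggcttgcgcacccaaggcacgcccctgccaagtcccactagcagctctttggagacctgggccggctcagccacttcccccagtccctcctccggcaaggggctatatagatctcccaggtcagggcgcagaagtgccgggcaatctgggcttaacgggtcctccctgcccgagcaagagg
Each window held 1 such core, which begins 49 bases before the start in Ppargc1a and 147 bases before it in Ucp1. Of 32851 promoter windows of the same length, 20.8% held the core. Both strands were searched. The full palindrome TGACGTCA, which contains the core, was in 1.79% of the windows, and the exact PPAR repeat, 2 copies of AGGTCA with 1 base between them, in 0.0396%. Neither was found in the 7 windows searched, which belong to 5 members (Ucp1, Ppargc1a, Ppara, Pparg with 3 windows, and Cebpb). The other members, Zfp516 among them, were not searched. These matches describe letters in a window and say nothing of binding.

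The first question was which members lay above background in the ventricular zone. Detection calls were not used here, so background was read from the 1015 olfactory receptor genes on the arrays, a family of odour receptors that belongs to the nose. A gene counted as above background where it exceeded the 95th percentile of these genes on every array; this level lay between 5.58 and 5.89 on the log2 scale. By this measure 2 of the 9 members, Ppargc1a and Zfp516, were above background in each of the 3 genotypes, against 50.7% of all genes tested (53.0% in KO, 52.3% in HET and 54.2% in WT alone). The other 7 were not above it in KO, HET or WT, although Ppara reached it on 1 WT array. Probe sets differ in affinity, so a position relative to this level is a description and does not rank the members by abundance.

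**Figure D1:**
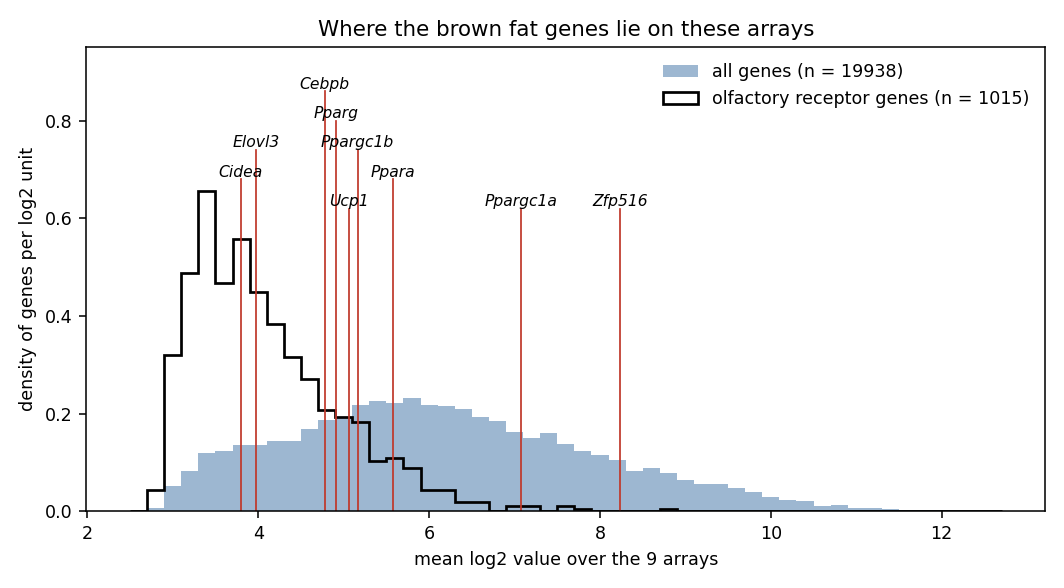
Mean log2 value over the 9 arrays on the horizontal axis against the density of genes. The filled histogram is all 19938 genes, the black outline the 1015 olfactory receptor genes, and red lines mark the 9 measured members; Cidea and Elovl3 fall near the middle of the olfactory receptor genes, 5 members lie in their upper part with Ppara the farthest right, and Ppargc1a and Zfp516 lie beyond.

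None of the 3 measured members that are not regulators of transcription, Ucp1, Cidea and Elovl3, was above background. Ucp1, which lets protons leak across the inner mitochondrial membrane, was at 5.01, 5.03 and 5.07 in KO arrays, 4.91, 5.08 and 5.23 in HET arrays, and 5.07, 5.10 and 5.10 in WT arrays. The genotypes overlapped, and the log2 change of KO against WT was -0.052 (95% interval -0.25 to 0.14). Over the 9 arrays Ucp1 exceeded at least 80.5% of the olfactory receptor genes (median 86.4%).

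Cidea, a lipid droplet protein typical of brown fat, was at 3.83, 4.02 and 3.78 in KO arrays, 3.76, 3.78 and 3.78 in HET arrays, and 3.66, 3.78 and 3.78 in WT arrays. It lay near the middle of the olfactory receptor genes, above 40.4% to 51.1% of them. The log2 change of KO against WT was 0.14 (95% interval -0.047 to 0.32), and KO replicate 3 lay within the HET and WT values. Without KO replicate 2 the change was 0.063, and with any other 1 array left out it was at most 0.18.

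Elovl3, an elongase of very long chain fatty acids that cold induces in brown fat, was at 4.08, 4.14 and 4.14 in KO arrays, 3.94, 3.78 and 3.84 in HET arrays, and 3.94 in each of the 3 WT arrays. The KO arrays lay above all HET and WT arrays, but by a small margin and at a level that exceeded only 47.1% to 63.3% of olfactory receptor genes. The log2 change was 0.18 (SE 0.072) against WT and 0.27 (SE 0.072) against HET, and neither passed (adjusted p = 0.74 and 0.40 by limma with Benjamini-Hochberg). The WT spread of 0 reflects the deposited values, in which HET replicate 1 and the 3 WT arrays hold exactly the same number. Such repeats are common in the table: 62.9% of all genes, and 6 of the 9 members, had a value shared by at least 2 arrays. All 3 WT arrays were equal for 3.42% of genes.

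**Figure D2:**
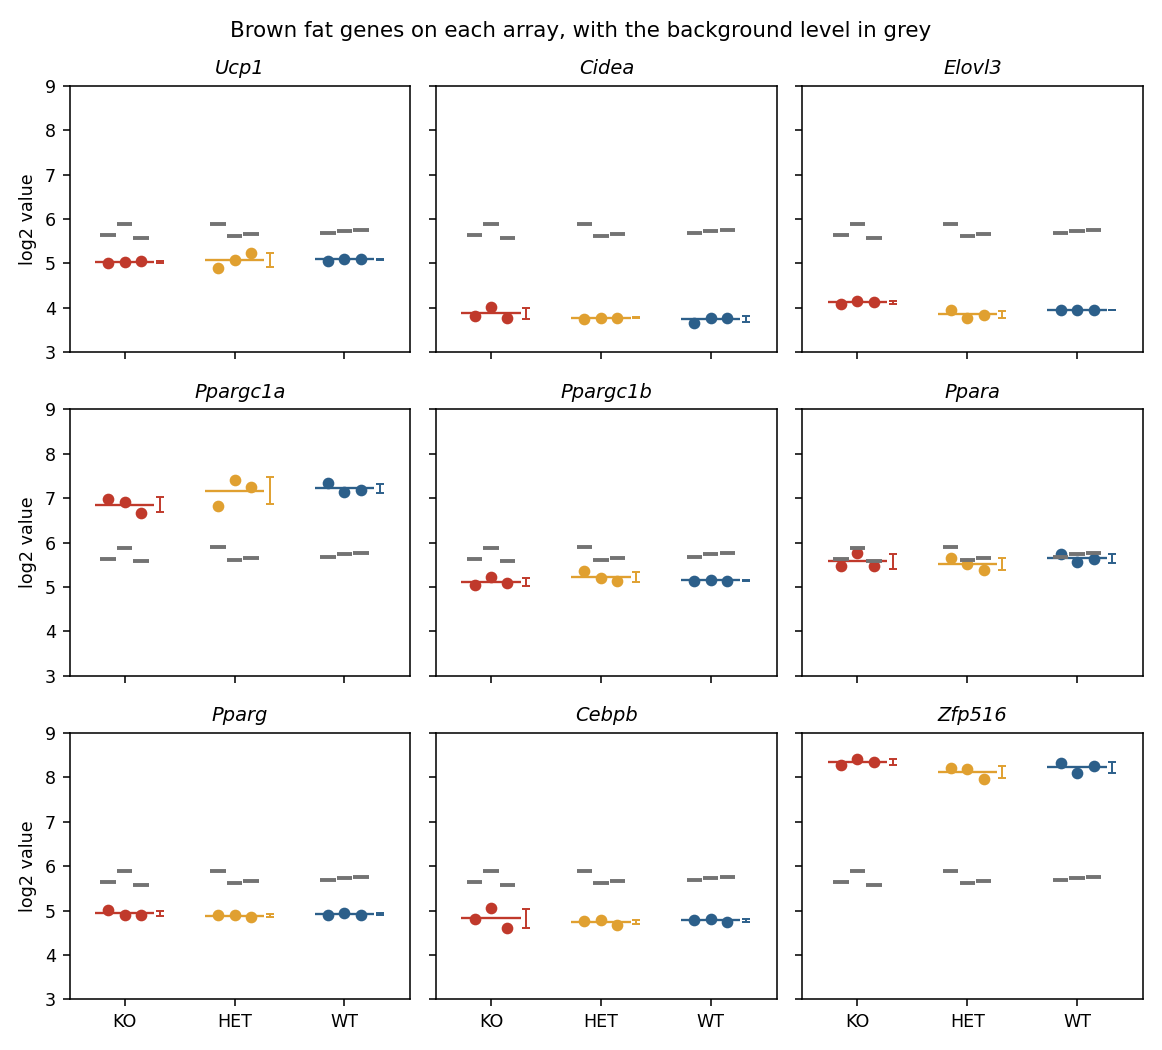
Log2 value (vertical axis) of each measured member on each array, by genotype (KO red, HET yellow, WT blue), with the genotype mean as a line and its SD as the bar at its right (n = 3); grey dashes give the 95th percentile of the olfactory receptor genes on the same array. Ppargc1a and Zfp516 lie above the dashes on all 9 arrays, Ppara lies close to them, and the other 6 lie below.

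The coactivators differed from each other in whether they were measured above background. Ppargc1a, which encodes PGC-1α, was at 6.98, 6.91 and 6.66 in KO arrays, 6.83, 7.42 and 7.25 in HET arrays, and 7.34, 7.14 and 7.19 in WT arrays. It stood 0.94 to 1.80 above the background level, higher than at least 99.1% of olfactory receptor genes on every array. The 3 KO arrays lay below the 3 WT arrays, and HET replicate 1 lay among the KO arrays.

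The KO mean of Ppargc1a was 6.85 ± 0.17, against 7.17 ± 0.30 in HET and 7.22 ± 0.11 in WT (SD, n = 3 each). KO was 1.30-fold lower than WT (log2 change -0.38, SE 0.15, 95% interval -0.70 to -0.053), the largest difference among the members. It did not pass over all genes (adjusted p = 0.71 by limma with Benjamini-Hochberg). Against HET the log2 change of KO was -0.32 (SE 0.15), between -0.49 without HET replicate 1 and -0.19 without HET replicate 2, and HET against WT was at -0.057 (SE 0.15). The difference of KO from WT was between -0.44 and -0.28 with any 1 array left out, and its adjusted p was between 0.28 and 1 over all settings tried.

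Ppargc1a has a second probe set, which did not share this pattern. Probe set 10529979 gave the values above, while probe set 10529977 was at 4.95, 4.57 and 4.78 in KO arrays, 4.66, 4.78 and 5.08 in HET arrays, and 4.78, 4.81 and 4.59 in WT arrays. The second one was not above background on any array, and its log2 change of KO against WT was 0.042 (SE 0.13). With the mean of both probe sets the change of Ppargc1a was -0.17, and the gene was no longer above background on every array. The sources used here do not say which transcripts either probe set reads.

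Summed levels of astrocyte and ependymal markers were lower in KO arrays than in HET and WT arrays. Of 8 astrocyte markers, 2 fell in KO against WT, where 0.451% of all genes were called: the lipid carrier Apoe (log2 change -0.86) and the water channel Aqp4 (log2 change -1.02). Of the 8, 6 lay below 0 and 2 above it (up to 0.21). The summed linear level of the 8 was 1668 to 1798 in KO arrays, against 2246 to 3076 in HET and 2349 to 2865 in WT arrays. Of 8 ependymal markers none passed in KO against WT, and all 8 lay below 0. Their sum was 420 to 596 in KO, 667 to 772 in HET and 725 to 769 in WT arrays. The KO and WT sums overlapped in every other list of cell type markers. For radial glia they were 8022 to 8820 in KO and 7973 to 9150 in WT arrays. For neurons they were 11692 to 12594 in KO and 11819 to 12360 in WT arrays. The part of any of these cell types in the Ppargc1a values was not tested.

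Ppargc1b, which encodes the related coactivator PGC-1β, was at 5.04, 5.21 and 5.09 in KO arrays, 5.35, 5.19 and 5.13 in HET arrays, and 5.15, 5.16 and 5.15 in WT arrays. It was below the background level on all 9 arrays, and the genotypes overlapped. The log2 change of KO against WT was -0.034 (95% interval -0.22 to 0.15).

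Of the nuclear receptors, Ppara came close to background and Pparg lay below it. Ppara, the receptor that turns on fatty acid burning, was at 5.48, 5.77 and 5.48 in KO arrays, 5.65, 5.51 and 5.38 in HET arrays, and 5.74, 5.55 and 5.64 in WT arrays. It differed from the background level by -0.28 to 0.052, and exceeded it on WT replicate 1 alone. The log2 change of KO against WT was -0.065 (95% interval -0.30 to 0.17), between -0.16 without KO replicate 2 and -0.016 without KO replicate 1.

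Pparg, the receptor on which all fat cells depend, was at 5.01, 4.90 and 4.90 in KO arrays, 4.90, 4.90 and 4.85 in HET arrays, and 4.90, 4.94 and 4.90 in WT arrays. The values were nearly level, and 5 of the 9 arrays held exactly the same number. The log2 change of KO against WT was 0.022 (95% interval -0.13 to 0.17).

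Of the DNA-binding partners, Cebpb was below the background level and Zfp516 above it. Cebpb, the partner with which PRDM16 starts the brown fat lineage, was at 4.80, 5.05 and 4.62 in KO arrays, 4.76, 4.78 and 4.68 in HET arrays, and 4.78, 4.81 and 4.74 in WT arrays. Its KO values lay on both sides of the others (log2 change against WT 0.047, 95% interval -0.18 to 0.28).

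Zfp516, a zinc finger protein that cold induces in brown fat and that activates Ucp1 there, was at 8.29, 8.41 and 8.35 in KO arrays, 8.22, 8.20 and 7.97 in HET arrays, and 8.32, 8.09 and 8.26 in WT arrays. Every array lay 2.31 to 2.77 above the background level. KO lay above HET without overlap (log2 change 0.22, SE 0.094) but overlapped WT (log2 change 0.12, SE 0.094), and neither difference passed (adjusted p = 0.78 and 0.98 by limma with Benjamini-Hochberg). With 1 array left out the change against WT was between 0.060 (without WT replicate 2) and 0.17, and that against HET between 0.14 (without HET replicate 3) and 0.27.

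The second question was whether any member changed with the Prdm16 genotype. None of the 9 passed in KO against WT by limma, where 0.451% of all genes did; 2 members, Elovl3 and Ppargc1a, had an unadjusted p under 0.05, against 6.15% of all genes. The same 2 members were those whose KO and WT arrays did not overlap, against 9.98% of all genes (5.63% higher in KO, as Elovl3, and 4.34% lower, as Ppargc1a). In KO against HET none of the members passed, with 0.206% of all genes called; Elovl3 and Zfp516 had an unadjusted p under 0.05, against 6.16% of genes, and did not overlap, against 6.54% (3.45% higher in KO, as both members were). In HET against WT no member and 0% of all genes passed; no member had an unadjusted p under 0.05, against 4.05% of genes, and none was free of overlap, against 6.85%. The comparisons share arrays, so these counts are not independent of each other.

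The intervals show how large a change the arrays left room for. In KO against WT the 95% intervals of the 9 members reached from -0.70 to 0.34 on the log2 scale. They reached from -0.64 to 0.43 in KO against HET, and from -0.38 to 0.27 in HET against WT. For the 7 members not above background these intervals describe the measured signal, in which a change of the transcript may be understated. The median log2 change of the members in KO against WT was 0.022, against 0.0064 over all genes, with 5 members above 0 and 4 below.

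**Figure D3:**
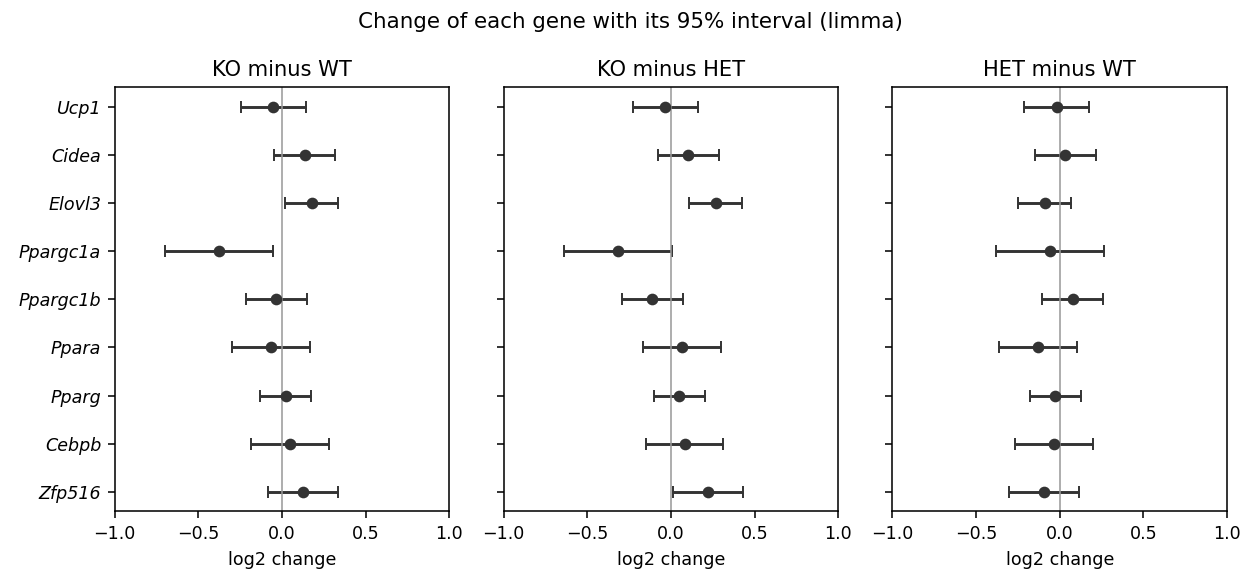
Log2 change (horizontal axis) of the 9 measured members for KO minus WT, KO minus HET and HET minus WT; points are the estimates and bars the 95% intervals from limma. The lowest point is Ppargc1a in KO minus WT at -0.38, and no member passed the test in any of the 3 comparisons.

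Of 20 measured paralogs of the members 14 were above background in all genotypes, 70.0% against 50.7% of all genes, and none passed in any comparison. Among uncoupling protein relatives, Slc25a27 (log2 change of KO against WT 0.26, SE 0.14), Slc25a14 (-0.13) and Slc25a30 (0.086), mitochondrial carriers found in brain, were above background, while Ucp3 (0.098) was not. Ucp2 was on the list too but had no value by the probe set rule used here. Of the elongases, Elovl1 (0.12), Elovl2 (-0.045), Elovl4 (0.12), Elovl5 (-0.32, SE 0.10), Elovl6 (0.11) and Elovl7 (-0.49, SE 0.17) were above background, and Elovl3 alone of the measured elongases was not. Elovl5 and Elovl7 had an unadjusted p under 0.05 in KO against WT, with adjusted p = 0.47 and 0.61 by limma.

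The carnitine palmitoyltransferases Cpt1a (-0.15), the liver type, and Cpt1c (0.15), the brain type, were above background. Among relatives of the regulators, Ppard (0.0066), the third PPAR, and Cebpg (0.12) were above it. The PGC-1 relative Pprc1 (0.10) and the C/EBP genes Cebpa (-0.16), Cebpd (-0.15) and Cebpe (0.065) were not. Of the CIDE genes, Cideb (0.043) was above background and Cidec (-0.12) was not.

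Other genes of brown fat gave 1 call. Of 24 measured, 8 were above background in all genotypes (33.3%, against 50.7% of all genes), and 1, Pdk4, fell in KO, where 0.451% of all genes were called against WT and 0.206% against HET. Pdk4, a kinase that shuts pyruvate dehydrogenase and a known target of PPARs and PGC-1α, averaged 6.59 in KO, 8.05 in HET and 8.47 in WT. Its log2 change was -1.87 (SE 0.087) against WT and -1.46 (SE 0.087) against HET (adjusted p = 6.4e-06 and 6.0e-05 by limma). No other gene of the list passed; Bmp7, a growth factor that promotes brown fat, lay at -0.27 (SE 0.081) and Acot2, a mitochondrial thioesterase, at 0.24 (SE 0.082). The list's median was -0.016, with 11 genes above 0 and 13 below. The list was chosen with the fall of Pdk4 already known, so it is not independent evidence of a direction.

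PRDM16 partners and the fat-burning genes below the PPARs had no call in any comparison. Of 15 measured PRDM16 partners 12 were above background, against 50.7% of all genes, and the values farthest from 0 by test were Zbtb16 at 0.39 (SE 0.10), Tle3 at -0.25 (SE 0.10) and Smad3 at 0.23 (SE 0.11) in KO against WT. Of 25 genes of fatty acid oxidation 17 were above background, with a median log2 change of -0.042 and 15 genes below 0. Acadl, the long chain acyl-CoA dehydrogenase, averaged 7.90 in KO and 8.57 in WT (log2 change -0.67, SE 0.14, adjusted p = 0.12 by limma). Decr1 lay at -0.38 (SE 0.17) and Ech1 at -0.24 (SE 0.11), and neither passed.

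Of 24 partners and targets of the PGC-1 coactivators 20 were above background (83.3%, against 50.7% of all genes), and the median log2 change of KO against WT was 0.046. The mitochondrial helicase Twnk lay at 0.27 (SE 0.11), the coactivator Ncoa1 at -0.25 (SE 0.12) and the receptor Rxrb at 0.15 (SE 0.079). None passed in any comparison.

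**Figure D4:**
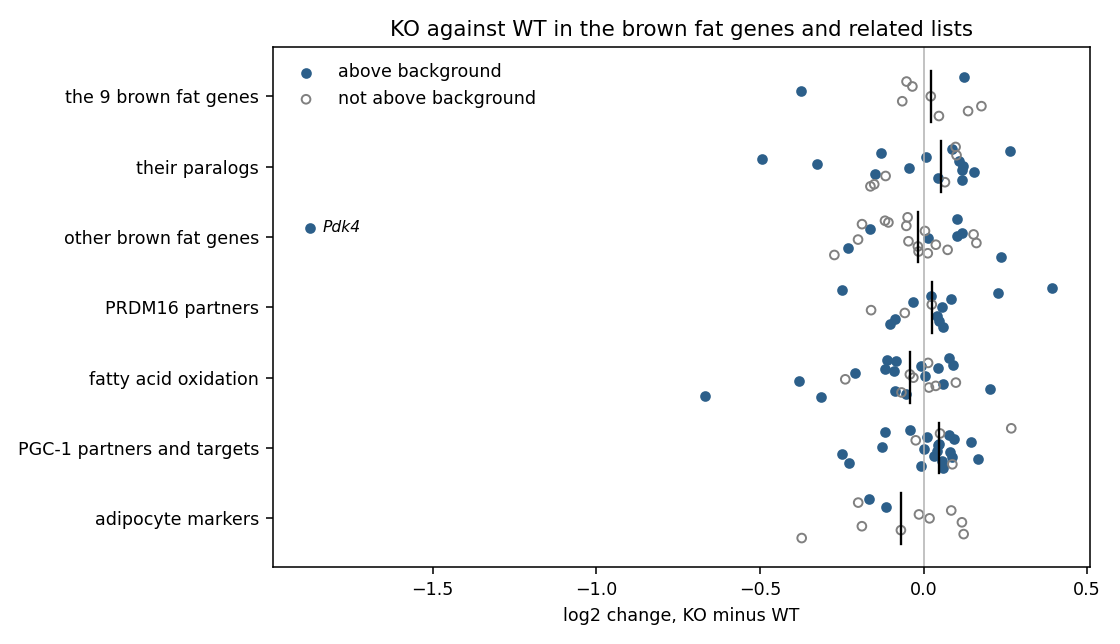
Log2 change of KO against WT (horizontal axis) of each gene in 7 lists; filled points were above background in all 3 genotypes, open points were not, and the black bar is the list's median. Pdk4, at -1.87, is the one called gene among them.

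The tissue was checked against lists of cell type markers. Above background in all genotypes, as 50.7% of all genes were, were 10 of 12 radial glia, 7 of 10 neuron and 6 of 8 astrocyte markers. So were 2 of 8 ependymal, 2 of 8 choroid plexus, 4 of 8 microglia, 5 of 8 endothelial and pericyte, and 3 of 8 meningeal markers. Not above it were Hes1 and Hopx of the radial glia list, Neurod2, Neurod6 and Slc17a7 of the neuron list, and Gfap and S100b of the astrocyte list. A gene that is not above background by this measure is not thereby shown to be absent. Of 11 adipocyte markers 2 were above background, Pnpla2 and Slc2a4, which other tissues express as well. Adipoq, Fabp4, Plin1 and Lep, which define fat cells, were not. Of 12 skeletal muscle markers 3 were above background, Myod1, Ckm and Tnnt3.

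The markers with the smallest p in each list differed between KO and WT as follows, in log2 changes. Among those above background, Prom1 (-0.57), Pax6 (-0.41) and Sox2 (0.22) mark radial glia, Gad1 (0.24) and Stmn2 (-0.27) neurons, and Gja1 (-1.03) and Slc1a2 (-0.62) astrocytes. Enkur (-1.18) is from the ependymal list, Otx2 (0.26) from that of choroid plexus and Csf1r (-0.047) from that of microglia. Pdgfrb (-0.29) is from the list of endothelium and pericytes, and Tnnt3 (-0.11) from that of muscle. Pdgfra (0.27) and Col1a2 (-0.15) are from the meningeal list. A place in a list does not make a gene specific to that cell type. Those not above background in every genotype were Neurod6 (0.28), Rsph4a (-0.96), Ak7 (-0.53), Kl (-0.13), P2ry12 (0.068), Aif1 (0.080), Slco1a4 (-0.27), Pecam1 (0.28), Lum (-0.18), Acvr1c (-0.37), Dgat2 (-0.19), Adipoq (0.12), Myh3 (-0.18) and Myog (-0.12).

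Apart from Apoe and Aqp4, the marker that passed in KO against WT was F5 of the choroid plexus list. F5 was higher in KO but not above background in any genotype, with means of 5.31 in KO, 4.32 in HET and 4.42 in WT. Against HET, Gja1 (-1.35) and Apoe (-1.01) fell in KO. Rsph4a and F5 passed against HET as well, lower and higher in KO; Rsph4a averaged 5.06 in KO, which is under the background level, and 6.24 in HET.

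Genes with the most similar profile were sought for the 2 members above background, over the 9 arrays and among 10116 other genes above background. For Ppargc1a these were Ubald1 (Pearson r = 0.92, Spearman rho = 0.90), Agk, a mitochondrial lipid kinase (r = 0.92, rho = 0.95), and Hlf, a transcription factor (r = 0.91, rho = 0.87). Without the 2 arrays farthest from the median, KO replicate 3 and HET replicate 1, r was 0.81, 0.78 and 0.82. For Zfp516 they were Bcat1, an enzyme of branched-chain amino acid breakdown (r = 0.95, rho = 0.96), Ppt2, a lysosomal thioesterase (r = 0.94, rho = 0.98), and Bicd2, a dynein adaptor (r = 0.94, rho = 0.86). Without HET replicate 3 and WT replicate 2, r was 0.90, 0.90 and 0.72. The highest of many correlations over so few arrays are high by selection, and they are given as a description.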

How the data were processed

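Total RNA of newborn ventricular zone cells was measured on 9 Affymetrix Mouse Gene ST 1.0 arrays, 3 per genotype, grouped by the sample titles. The table deposited by the authors holds 28940 probe sets as log2 values, every one present. RMA, affy and limma are named, without versions, per the submitters' processing notes. The number of arrays limits the precision.

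Probe sets were named from the platform annotation: 21789 had 1 symbol, 1621 several and 5530 were not listed. The probe set with the highest mean stood for a gene, which left 19938 genes. The log2 values were tested without further normalization in R 4.3.3 with limma 3.58.1 (1 fit of all 9 arrays, eBayes, two-sided), with Benjamini-Hochberg adjustment over all genes and a call at an adjusted p under 0.05. The script was tested on simulated data. Background was the 95th percentile of olfactory receptor genes on the same array.

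Members and lists were chosen with earlier results of these data known. Named were Prdm16, all members and paralogs, and of each other list the called genes and the 3 with the smallest p in KO against WT. The 3 nearest profiles of each member above background were named too. Fabp4, Plin1, Lep, Pnpla2, Slc2a4, Myod1, Ckm, Hes1, Hopx, Neurod2, Slc17a7, Gfap and S100b were named after their values were seen. Alternatives included the replicate number as a block, array weights, other normalizations and each array left out.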

Additional observations from a re-analysis of the deposited data

How the results depend on the processing

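In the 20 alternative settings, in which some dim members have no value once the dimmest genes are left out, no member was called in any comparison, and the lowest adjusted p by limma was 0.14. Of 522 member changes, 503 kept their sign. Many of these hold the main estimate by construction, so their sign could not change. That is so with the replicate block, with another cutoff, or without an array of the genotype not compared. No value that changed sign was called, and the cause was not tested. In HET against WT, Ucp1 was at 0.020 with quantile normalization, 0.021 with array weights and 0.065 when both HET replicate 1 and KO replicate 2 were left out. Those 2 arrays had the highest background levels, 5.89 for HET replicate 1 and 5.88 for KO replicate 2. Their array weights, 0.55 and 0.36, were the lowest. Ppargc1a was at 0.030 with the mean of probe sets and 0.11 without those 2 arrays. Leaving out HET replicate 1 alone gave the same 0.065 for Ucp1 and 0.11 for Ppargc1a. KO arrays do not enter the estimate of HET against WT. Pparg was at 0.0066 and Cebpb at 0.0014 with quantile normalization. Without those 2 arrays Cebpb was at -0.067 in KO against WT and -0.021 in KO against HET. Leaving out KO replicate 2 alone gave -0.067 and -0.032. With 1 array left out at a time, the KO against WT change ranged from -0.084 to 0.0045 for Ppargc1b, from -0.013 to 0.041 for Pparg and from -0.067 to 0.15 for Cebpb. The KO against HET change ranged from -0.031 to 0.13 for Ppara, from -0.032 to 0.19 for Cebpb and from -0.12 to 0.043 for Ucp1. The HET against WT change ranged from -0.095 to 0.065 for Ucp1, from -0.18 to 0.11 for Ppargc1a and from -0.0056 to 0.052 for Cidea.

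The number of members above background was 2 with any 1 array left out, with the 99th percentile and with quantile normalization, and 3 with the 90th percentile (Ppara joined). It was 4 with vomeronasal receptor genes or with the lower quartile of all genes as the level (Ppara and Ppargc1b joined), 1 with keratin-associated protein genes (Zfp516) and 1 with the mean of probe sets. The calls over all genes were 90 in KO against WT and 41 in KO against HET. They were 33 and 8 with only the 2 genotypes compared in the fit. KO against WT gave 50 calls when both HET replicate 1 and KO replicate 2 were left out, and 151 with array weights. KO against HET gave 26 with every probe set and 21 with median centring. With 1 array left out, they ranged from 23 to 77 in KO against WT and from 12 to 75 in KO against HET; the first was at most 59 without any KO or WT array or HET replicate 2. HET against WT gave 0 in every setting run. With the replicate number as a block, KO against HET gave 19 calls and KO against WT 72. Deviations of same-numbered arrays correlated at r between -0.34 and 0.055 over 9 pairs. Arrays with different numbers reached r = 0.31 (KO replicate 2 with HET replicate 1). The labels do not say what the numbers stand for. Other differences between arrays enter these correlations too, so they cannot show whether same-numbered arrays share a litter or batch.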
